A study of Mus musculus with 12 samples.

Results

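The urea cycle and ammonia handling set held 10 genes, chosen by name as the 5 enzymes of the cycle (Cps1, Otc, Ass1, Asl and Arg1), the enzyme and carrier that serve it in mitochondria (Nags and Slc25a15), and 3 enzymes that bind or release ammonia (Glul, Gls2 and Glud1). All 10 were among the 16728 genes of the deposited table and among the 12275 genes that had enough reads to be tested. The rule that named these genes used no measured value, but the choice was made with earlier results of the same libraries known. RNA was sequenced from hepatocytes isolated from the livers of C57BL/6 mice, either wild type (WT) or lacking the bile acid receptor Fxr (Fxr-/-, written KO), and kept for 24 h in DMEM with 10% fetal bovine serum. Every culture received an added agent at 100 µM, either AC or FAC, which the labels name only by these abbreviations. The 4 groups were WT AC (libraries 1 to 3), WT FAC (4 to 6), KO AC (1 to 3) and KO FAC (4 to 6), with no culture left without an agent. No label ties the 3 libraries of a group to different mice or dishes, and the p-values below therefore reflect only how far these libraries spread, which may be technical.

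The urea cycle turns ammonia into urea and is known as a function of periportal hepatocytes. Cps1 and Otc work inside mitochondria, where Cps1 makes carbamoyl phosphate from ammonia and needs N-acetylglutamate, the product of Nags, to be active. Slc25a15 carries ornithine into mitochondria and citrulline out, and Ass1, Asl and Arg1 complete the cycle in the cytosol. Around the cycle, Gls2 and Glud1 release ammonia from glutamine and glutamate, and Glul, confined to a rim of pericentral hepatocytes in the intact liver, binds ammonia that escaped the cycle as glutamine.

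Of the 10 members, 6 had an entry in the RefSeq promoter table (GRCm38.p6). The 3 stretches shown are those before a gene start that hold no annotated exon, and expression played no part in picking them. The windows of Slc25a15, Glul and Glud1 begin inside an annotated exon or gene and are not shown. All are on the plus strand, 5′ to 3′, with capitals marking a match to a searched motif.
Otc, chrX:10252055-10252229: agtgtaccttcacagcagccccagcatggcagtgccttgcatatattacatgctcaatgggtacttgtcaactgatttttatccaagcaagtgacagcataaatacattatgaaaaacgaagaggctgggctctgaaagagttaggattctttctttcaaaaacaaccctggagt
Ass1, chr2:31470020-31470206: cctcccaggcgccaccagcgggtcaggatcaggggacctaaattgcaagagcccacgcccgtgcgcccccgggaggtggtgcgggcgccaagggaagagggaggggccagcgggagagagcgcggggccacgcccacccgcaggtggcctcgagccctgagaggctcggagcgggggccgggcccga
Nags, chr11:102145263-102145512: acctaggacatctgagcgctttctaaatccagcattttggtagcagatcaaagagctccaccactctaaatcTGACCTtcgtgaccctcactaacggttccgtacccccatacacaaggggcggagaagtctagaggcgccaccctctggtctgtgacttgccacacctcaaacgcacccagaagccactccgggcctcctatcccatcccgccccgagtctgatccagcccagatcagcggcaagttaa
The motifs searched on both strands were the inverted repeat of AGGTCA with 1 base between that Fxr is known to bind, a single AGGTCA, TGACGTCA (the cyclic AMP response element), TTGCGCAA (a C/EBP element), CCAAT and TATAAA, where the inverted repeat also holds the single element. The Nags stretch held one AGGTCA on its minus strand, 178 to 173 bases before the gene start, and such a match was present in 14.0% of the 32851 promoters at a length of 250 bases. The Otc and Ass1 stretches held no match to these letters.

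The libraries held 16464494 to 18335700 estimated reads and 14249 to 14491 genes with reads. The first principal component held 59.2% of the variance and separated WT from KO libraries. Nr1h4, the gene for Fxr, stood at 11.7, 12.9 and 10.9 TPM (abundance per length, scaled to one total in every library) in WT AC, 5.40, 5.43 and 6.08 in WT FAC, 7.65, 5.61 and 6.38 in KO AC, and 2.34, 3.39 and 3.68 in KO FAC. Its reads were thus lower in KO than in WT under each agent but not gone, and a value per gene does not show which exons they came from. Hepatocyte markers had a summed level of 21030 to 28130 TPM over 8 of 8 markers, most of it Alb. Not every marker was abundant, with Tat at a mean of 1.92 TPM in WT AC. Single markers went apart between the genotypes, with Alb at a mean of 16945 TPM in WT AC and 13754 in KO AC. Cyp3a11 stood at 83.7 and 544 TPM in these groups. On the third component, with 7.42% of the variance, the KO libraries of one group lay far apart, from -14.6 to 13.5 in KO AC and from -22.7 to 27.7 in KO FAC.

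Measured per length as TPM, the set covered a wide range of levels, and the enzyme that opens the cycle was the lowest. In WT AC libraries Glud1 led with 363 ± 27.6 TPM (SD, n = 3), Ass1 followed with 144 ± 6.85, and Glul and Asl stood at 84.1 ± 3.91 and 73.4 ± 2.37. Gls2, Nags and Slc25a15 lay between 9.31 and 23.3 TPM on average. Arg1 at 2.01 ± 0.09, Otc at 1.58 ± 0.17 and Cps1 at 1.47 ± 0.13 TPM closed the order, and Otc and Cps1 overlapped. Cps1, among the most abundant mitochondrial proteins of the liver, ranked 10375th of 12275 tested genes in these cultured WT cells.

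The order was different in KO cells mainly through Arg1. In KO AC libraries Arg1 was the fifth of the set at 44.2 ± 2.86 TPM, and in KO FAC libraries again the fifth at 56.5 ± 4.39 TPM. Ass1 stood first in both KO groups, at 358 ± 25.3 and 425 ± 17.8 TPM, but its libraries overlapped those of Glud1. Cps1 remained last in all 4 groups, at 0.95 ± 0.12 TPM in WT FAC, 4.25 ± 0.41 in KO AC and 5.94 ± 0.99 in KO FAC. In WT FAC libraries Asl stood above Glul, the reverse of WT AC, and the libraries of that pair did not overlap in either group. Gls2 and Nags overlapped in KO FAC, as did Otc and Slc25a15 in that group and Arg1 and Otc in WT FAC.

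**Figure D1:**
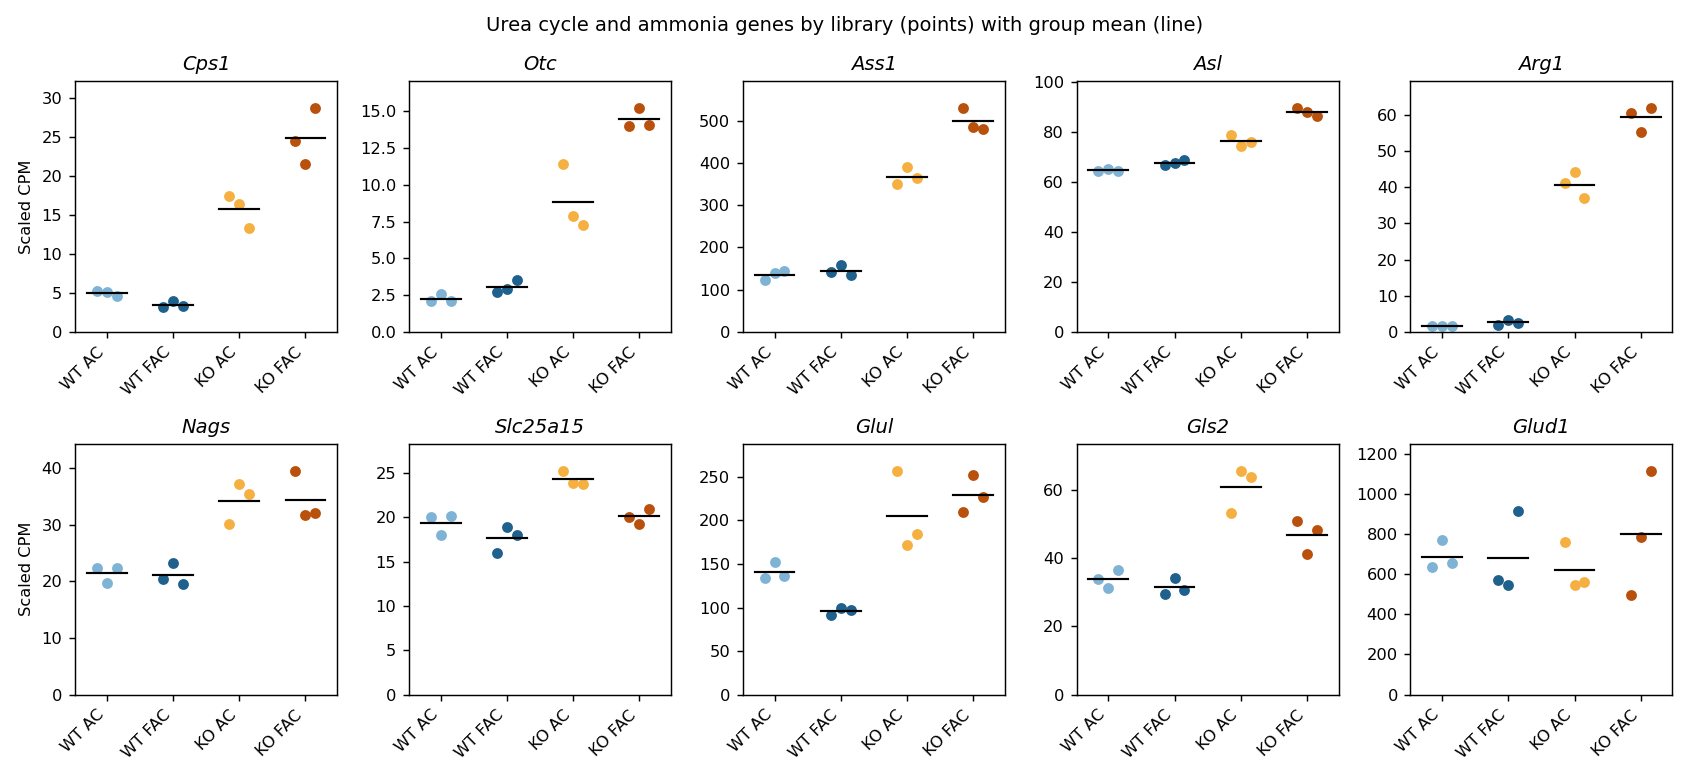
Level of each of the 10 genes in every library, in read counts scaled to library size (CPM) on a linear axis, by group. Points are single libraries and lines are group means. The Arg1 points of both KO groups sit at 36.9 CPM or above while those of both WT groups sit at 3.40 or below.

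Genes of the set were higher in KO than in WT cells under AC, with Arg1 far ahead, Otc, Cps1 and Ass1 next, and the remaining called genes less than 2-fold higher. An adjusted p of 0.05 was passed by 9 of the 10 members and all 9 were higher in KO, beside 42.9% of all tested genes called, 21.7% higher and 21.2% lower. The KO and WT libraries did not overlap for these 9, nor for 53% of all tested genes. The members' median log2 fold change was 0.76, and that of all tested genes was -0.0033. In bulk RNA, more cells of a kind and more RNA per cell cannot be told apart. The tests are edgeR quasi-likelihood tests with Benjamini-Hochberg adjustment over all tested genes, fold changes are on the log2 scale with their standard error, and values per library are read counts scaled to library size (CPM).

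Among the mitochondrial steps, Cps1 stood at 5.23, 5.08 and 4.65 CPM in WT AC and at 17.4, 16.4 and 13.3 in KO AC. The difference was 1.65 ± 0.14 (adjusted p = 1.06e-06), and no KO library came near a WT one. These values rest on 85 to 96 estimated reads per WT AC library. Otc, which joins carbamoyl phosphate to ornithine, rose from 2.07, 2.60 and 2.08 CPM to 11.4, 7.86 and 7.27, by 1.97 ± 0.19 (adjusted p = 3.03e-06). The first KO AC library was the highest for both genes.

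In the cytosol, Ass1, which makes argininosuccinate from citrulline and aspartate, measured 122, 140 and 143 CPM in WT AC and 349, 389 and 364 in KO AC, a difference of 1.44 ± 0.08 (adjusted p = 1.06e-08). Asl, which splits argininosuccinate into arginine and fumarate, changed far less, from 64.2, 65.3 and 64.5 CPM to 78.6, 74.2 and 76.1. Its difference of 0.24 ± 0.06 passed the test (adjusted p = 0.00359), and libraries of one group lay close to each other, but it did not pass on the TPM scale (0.10, adjusted p = 0.143, in limma). Arg1, which releases urea from arginine, measured 1.69, 1.68 and 1.70 CPM in WT AC (31 estimated reads in each library) and 41.1, 44.2 and 36.9 in KO AC. It was 24.1-fold higher in KO (log2 fold change 4.59 ± 0.15, adjusted p = 4.54e-11), the 34th largest change in either direction of the 12275 genes tested.

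The mitochondrial partners of the cycle moved less. Nags rose from 22.3, 19.7 and 22.3 CPM to 30.2, 37.1 and 35.3 in KO AC, by 0.68 ± 0.11 (adjusted p = 0.000391). A gene annotated on the opposite strand, Gm11586, covers 15.6% of the Nags exon bases, and the strand setting of the counting was not given in the sources used here, so their reads cannot be told apart. Overlaps with other genes cover 2.79% to 3.49% of the exon bases of Glul and Gls2. Slc25a15 rose from 20.01, 18.1 and 20.2 CPM to 25.3, 23.9 and 23.7, by 0.32 ± 0.09 (adjusted p = 0.00988). That call was lost on the FPKM and TPM scales in limma (adjusted p from 0.0553 to 0.142).

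Of the ammonia enzymes outside the cycle, Glul and Gls2 were higher in KO and Glud1 did not pass. Glul, glutamine synthetase, measured 134, 152 and 136 CPM in WT AC and 257, 172 and 185 in KO AC, a difference of 0.54 ± 0.13 (adjusted p = 0.00455). The first KO AC library stood well above its group, and without it the difference was 0.34 (adjusted p = 0.00637, in a range of 0.000309 to 0.0227 over all alternative fits). Gls2, the liver-type glutaminase, rose from 34.0, 31.4 and 36.4 CPM to 53.3, 65.6 and 63.8, by 0.84 ± 0.10 (adjusted p = 3.05e-05). Glud1, glutamate dehydrogenase, measured 636, 772 and 659 CPM in WT AC and 761, 546 and 563 in KO AC, and the groups overlapped (-0.14 ± 0.30, adjusted p = 0.726).

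Under FAC, KO cells again had more Arg1, Cps1, Otc, Ass1 and Glul RNA than WT cells, and Slc25a15 no longer passed. The test was passed by 8 of 10 members and all 8 were higher in KO, beside 49.5% of all tested genes called, 24.6% higher and 24.9% lower. Libraries did not overlap for 9 members, all but Glud1, nor for 59.1% of all tested genes, and the members' median log2 fold change was 0.98. Cps1 stood at 3.22, 3.997 and 3.27 CPM in WT FAC and at 24.5, 21.6 and 28.8 in KO FAC, which is 7.12-fold higher (2.83 ± 0.15, adjusted p = 4.24e-09). Otc went from 2.71, 2.90 and 3.56 CPM to 14.0, 15.2 and 14.1, a difference of 2.24 ± 0.18 (adjusted p = 3.66e-07). Each of these groups was tight beside the gap between them.

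Ass1 measured 141, 158 and 134 CPM in WT FAC and 530, 486 and 480 in KO FAC, a difference of 1.79 ± 0.08 (adjusted p = 9.72e-10). Arg1 measured 2.03, 3.40 and 2.41 CPM in WT FAC and 60.7, 55.4 and 62.0 in KO FAC, 22.6-fold higher (4.50 ± 0.14, adjusted p = 2.95e-11). Glul went from 90.9, 100.0 and 97.5 CPM to 210, 253 and 227, by 1.26 ± 0.13 (adjusted p = 6.06e-06). In all 3 of these genes the lowest KO library lay above the highest WT library with a wide gap. Asl, Nags and Gls2 were higher by smaller amounts, 0.38 ± 0.06, 0.71 ± 0.11 and 0.58 ± 0.11. Slc25a15 (0.19 ± 0.09, adjusted p = 0.0992, and -0.01 on the TPM scale) and Glud1 (0.24 ± 0.30, adjusted p = 0.535) did not pass.

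**Figure D2:**
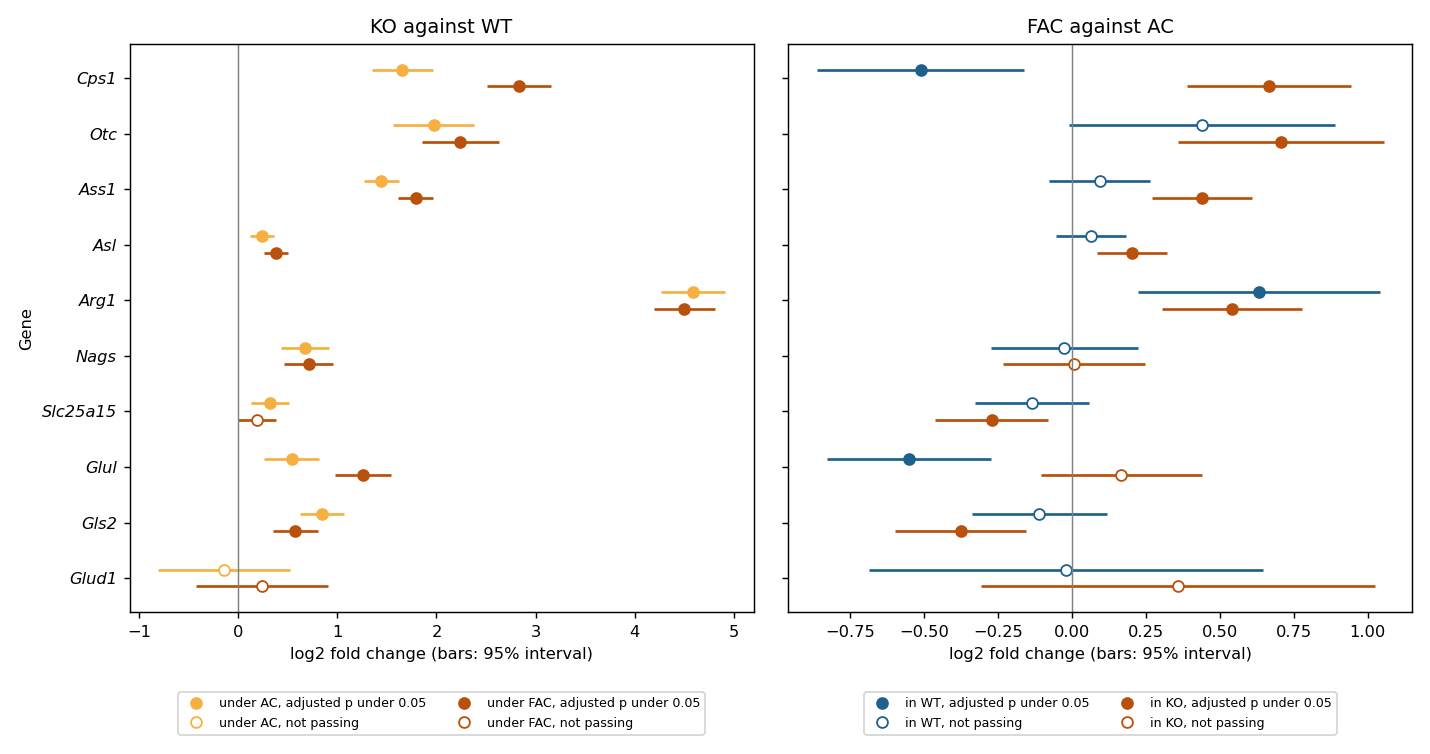
log2 fold change of each gene with its 95% interval, for KO against WT under each agent (left) and for FAC against AC in each genotype (right). Filled points passed an adjusted p of 0.05. Arg1 lies near 4.5 in both genotype comparisons, and Cps1 is the gene whose 2 intervals on the right lie on opposite sides of 0.

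In WT cells, FAC moved few genes of the set. Arg1 was higher, Cps1 and Glul were lower, and the other 7 did not pass, which is 3 of 10 members called beside 17.2% of all tested genes (8.7% higher and 8.55% lower). The median over the members was -0.02. Glul fell from 134, 152 and 136 CPM to 90.9, 100.0 and 97.5, by 0.55 ± 0.13 on the log2 scale (adjusted p = 0.0112), and it passed in each of the 14 alternative fits run. All FAC libraries lay below all AC libraries.

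The other calls in WT cells were less firm. Cps1 went from 5.23, 5.08 and 4.65 CPM to 3.22, 3.997 and 3.27, a log2 change of -0.51 ± 0.16 (adjusted p = 0.0458), and without any 1 of the 6 WT libraries its adjusted p rose to between 0.0504 and 0.144. The Cps1 call was lost in 9 of its 13 alternative fits. Arg1 went from 31 estimated reads in each AC library to 36, 62 and 42 in the FAC libraries, a log2 change of 0.63 ± 0.19 (adjusted p = 0.0355). Without WT FAC library 5, the one with 62 reads, the Arg1 change was 0.39 (adjusted p = 0.251), and without WT AC library 1, 2 or 3 or WT FAC library 6 the adjusted p was 0.0574 to 0.0938. Otc at 0.44 ± 0.21 had FAC libraries all above AC libraries, as had Asl at 0.07 ± 0.06, but neither passed (adjusted p = 0.170 and 0.458), and libraries failed to overlap for 43.2% of all tested genes. Ass1 (0.09 ± 0.08), Nags (-0.03 ± 0.12), Slc25a15 (-0.14 ± 0.09), Gls2 (-0.11 ± 0.11) and Glud1 (-0.02 ± 0.30) overlapped between the agents, and on the TPM scale the values of Ass1 and Asl turned negative, at -0.03 and -0.06.

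In KO cells, all 5 enzymes of the cycle were called higher with FAC, and the ornithine carrier and the liver glutaminase lower. The calls of Asl, Slc25a15 and Gls2 were lost in some alternative fits. In all, 7 of 10 members passed, 5 higher and 2 lower, beside 29.6% of all tested genes called, 15% higher and 14.6% lower. The main fit, over all 4 groups, called 3633 genes with FAC in KO cells and 2117 in WT cells. With only the 2 groups compared in the fit, 2199 of 11895 genes were called in KO and 3345 of 11830 in WT. Which genotype had more genes called thus depended on the fit. The members' median was 0.28. Cps1 rose from 17.4, 16.4 and 13.3 CPM to 24.5, 21.6 and 28.8 (0.67 ± 0.13, adjusted p = 0.00198). Otc rose from 11.4, 7.86 and 7.27 to 14.0, 15.2 and 14.1 (0.71 ± 0.16, adjusted p = 0.00579). For both, the lowest FAC library was above the highest AC library.

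Ass1 rose from 349, 389 and 364 CPM to 530, 486 and 480 (0.44 ± 0.08, adjusted p = 0.00129). Arg1 rose from 41.1, 44.2 and 36.9 CPM to 60.7, 55.4 and 62.0 (0.54 ± 0.11, adjusted p = 0.00269). The calls of Cps1, Otc, Ass1 and Arg1 held in every alternative fit in which they were tested. Asl rose by 0.20 ± 0.06 (adjusted p = 0.0137), from 78.6, 74.2 and 76.1 CPM to 89.6, 87.9 and 86.4, a change that was 0.01 on the TPM scale (adjusted p = 0.863, the highest over its alternative fits, of which the lowest was 0.00217) and did not pass on either FPKM scale (0.12 on each, adjusted p = 0.0858 and 0.09), with only the KO groups fitted (adjusted p = 0.0808) or without KO AC library 2 (adjusted p = 0.0567). On that scale the median of all genes itself shifted by -0.15 between these groups.

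Both genes that fell in KO cells did so by small amounts. Gls2 went from 53.3, 65.6 and 63.8 CPM to 51.0, 41.3 and 48.4 (-0.38 ± 0.10, adjusted p = 0.0149), and the call was lost without KO AC library 2 or 3 or KO FAC library 5 (adjusted p from 0.0582 to 0.0733). Slc25a15 went from 25.3, 23.9 and 23.7 CPM to 20.1, 19.3 and 21.0 (-0.27 ± 0.09, adjusted p = 0.034), and the call was lost without any 1 of KO AC libraries 1, 2 and 3 and KO FAC libraries 4 and 5 (adjusted p from 0.0616 to 0.111). Neither gene was called with only the KO groups fitted. In all, Gls2 lost its call in 4 and Slc25a15 in 8 of 16 alternative fits. In each gene no FAC library reached an AC library, as for 38.8% of all tested genes.

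Glul, Nags and Glud1 did not pass in KO cells. Glul measured 257, 172 and 185 CPM in KO AC and 210, 253 and 227 in KO FAC (0.17 ± 0.13, adjusted p = 0.342, and -0.01 on the TPM scale). Its result turned on KO AC library 1. Without that library the change was 0.37 with an adjusted p of 0.00638, in a range of 0.000895 to 0.976 over all alternative fits. Nags measured 30.2, 37.1 and 35.3 CPM against 39.5, 31.7 and 32.0 (0.01 ± 0.11, adjusted p = 0.965), with a sign that varied among fits.

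The response to FAC was compared between the genotypes as the difference of the 2 changes, KO minus WT. Cps1 alone passed of the 10 members, beside 3.15% of all tested genes (1.87% with a positive and 1.28% with a negative difference). Cps1 was lower with FAC in WT cells and higher with FAC in KO cells, and the changes differed by 1.18 ± 0.21 on the log2 scale (adjusted p = 0.0106, and from 0.000271 to 0.0453 over 21 alternative fits). All 3 WT FAC libraries lay below the WT AC libraries, and all 3 KO FAC libraries lay above the KO AC libraries. Thus the ratio of KO to WT for Cps1 was 3.15 under AC and 7.12 under FAC.

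Glul came close. Its changes differed by 0.72 ± 0.18 (adjusted p = 0.0503), and the difference passed without KO AC library 1 (0.92, adjusted p = 0.00142), without KO FAC library 4 (0.79, adjusted p = 0.0364) and in DESeq2 (adjusted p = 0.0072), with adjusted p-values from 0.000105 to 0.124 over all alternative fits. For Ass1 the difference was 0.35 ± 0.11 (adjusted p = 0.112). The other members did not pass either, with 95% intervals from -0.30 to 0.84 for Otc, from -0.03 to 0.31 for Asl, from -0.55 to 0.38 for Arg1 and from -0.58 to 0.05 for Gls2. Nags (0.03 ± 0.16), Slc25a15 (-0.14 ± 0.13) and Glud1 (0.38 ± 0.42) had intervals that included 0 as well.

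**Figure D3:**
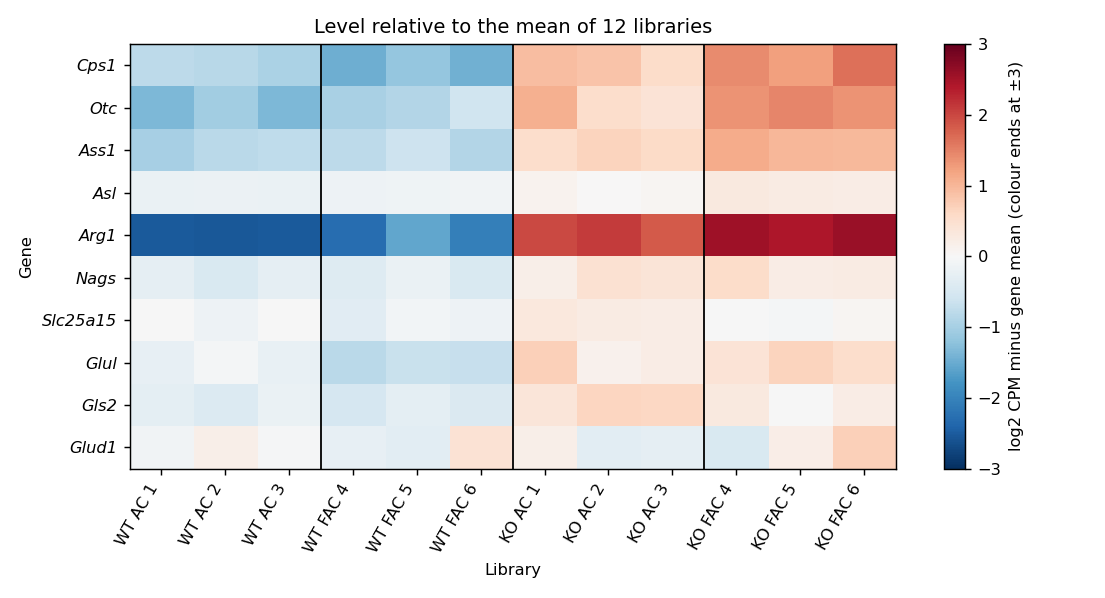
Each library's log2 CPM of each gene minus the gene's mean over the 12 libraries, on a colour scale that ends at ±3. Arg1, Otc, Cps1 and Ass1 are low in the 6 WT columns and high in the 6 KO columns, while Glud1 follows neither genotype nor agent.

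Glud1 spread widely within groups. In WT FAC it measured 570, 549 and 919 CPM, in KO AC 761, 546 and 563, and in KO FAC 497, 784 and 1118. Its coefficient of variation was 10.6% in WT AC, 30.6% in WT FAC, 19.1% in KO AC and 38.9% in KO FAC. Otc exceeded it in WT AC (13.4%) and KO AC (25.3%), and Glul in KO AC (22.5%). Its standard error of about 0.30 leaves 95% intervals that run from -0.43 to 0.90 for KO against WT under FAC. The KO FAC libraries had the same order on the third component as for Glud1, with library 4 lowest and library 6 highest, and KO AC library 1 was the highest of its group on both. The part of that axis in the Glud1 values was not tested. RefSeq lists a pseudogene copy, Glud-ps, which has no row in the table, so reads of near-identical copies may have been assigned to Glud1.

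Summed over the 5 enzymes of the cycle, the level was 219 to 228 TPM in WT AC, 208 to 232 in WT FAC, 463 to 507 in KO AC and 553 to 594 in KO FAC. The WT groups overlapped, every KO AC library lay above every WT library, and every KO FAC library lay above the KO AC libraries. Ass1 made up 62.8% to 74.8% of this sum in each library, so it largely describes Ass1. Without Ass1 the sum was 73.7 to 81.4 TPM in WT libraries, 133 to 134 in KO AC and 144 to 157 in KO FAC. That remainder was mostly Asl in WT cells, with means of 73.4 TPM in WT AC and 70.2 in WT FAC. In KO cells it was mostly Asl (means of 78.9 in KO AC and 79.6 in KO FAC) and Arg1 (44.2 and 56.5). It therefore says little about Cps1 and Otc. The ratio of Glul to Gls2 in TPM was 3.25 to 4.22 in WT AC, 2.54 to 2.78 in WT FAC, 2.28 to 4.202 in KO AC and 3.58 to 5.32 in KO FAC.

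Arg1 has a paralogue with a wider tissue range. This gene, Arg2, encodes the mitochondrial arginase and measured 33.2, 28.1 and 28.5 TPM in WT AC, 53.9, 47.9 and 57.1 in WT FAC, 22.8, 37.6 and 39.9 in KO AC, and 52.5, 21.7 and 4.72 in KO FAC. Arg2 was more abundant than Arg1 in all 6 WT libraries, where the ratio of Arg1 to Arg2 was 0.04 to 0.08, and less abundant in all 6 KO libraries, where it was 1.05 to 12.9. Arg2 did not pass in any of the 5 comparisons. With FAC in WT cells its log2 change was 0.95 ± 0.62 (adjusted p = 0.334). That standard error draws on the spread within all 4 groups, and Arg2 spread widely in KO FAC. Its KO FAC libraries had the reverse order of that for Glud1.

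**Figure D4:**
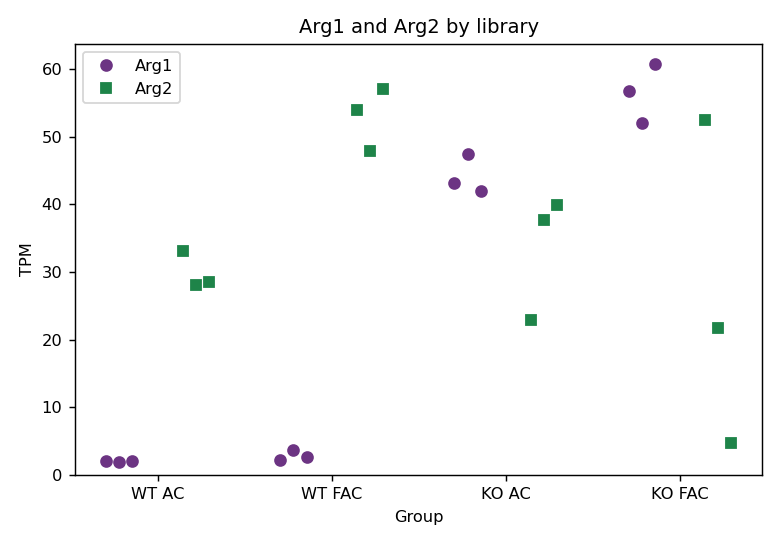
TPM of Arg1 and Arg2 in every library, 1 point per library, on a linear axis from 0. Within each library, Arg2 lies above Arg1 in the 6 WT libraries and below it in the 6 KO libraries.

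Genes around the cycle moved in both directions, and their counts are to be read beside the shares of all tested genes called, 42.9% for KO against WT under AC, 49.5% under FAC, 17.2% for FAC in WT cells and 29.6% for FAC in KO cells. Of 22 other genes of the cycle and of arginine and ornithine metabolism, 20 were tested, and in KO against WT 8 were higher and 2 lower under AC, and 9 were higher and 4 lower under FAC. Prodh2, a hydroxyproline dehydrogenase, was higher by 2.25 ± 0.16 and 2.42 ± 0.15, and Gamt, which makes creatine, by 1.73 ± 0.23 and 3.02 ± 0.24. Aqp8, a water and ammonia channel, was higher by 1.78 ± 0.14 and 2.20 ± 0.15. Agmat was higher under FAC by 2.11 ± 0.20, and its change with FAC differed between the genotypes by 1.32 ± 0.28 (adjusted p = 0.0256). Slc25a13, the aspartate-glutamate carrier that supplies Ass1 with aspartate, had the opposite difference, -0.43 ± 0.09 (adjusted p = 0.0291).

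With FAC, 1 gene of that list was higher and 2 were lower in WT cells, and 5 were higher and 2 lower in KO cells. Aldh4a1, the last enzyme of proline breakdown, fell by 0.72 ± 0.12 in WT cells (adjusted p = 0.00117), where Prodh2 rose by 0.65 ± 0.17 and Oat, ornithine aminotransferase, fell by 0.30 ± 0.07. In KO cells Agmat and Gamt each rose by 0.91, with standard errors of 0.18 and 0.20, and Prodh2 rose by 0.82 ± 0.13.

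A further list of 23 genes covered nitrogen input, transamination and the use of glutamine nitrogen. Of these genes, 5 were higher and 8 lower in KO cells under AC, and 7 were higher and 10 lower under FAC. Among all tested genes, 21.7% were higher and 21.2% lower under AC, and 24.6% and 24.9% under FAC. Gldc, the glycine cleavage enzyme, was lower by 1.46 ± 0.15 under AC and by 1.31 ± 0.15 under FAC. The alanine aminotransferases went apart, Gpt higher by 1.32 ± 0.09 under AC and 1.19 ± 0.08 under FAC, and Gpt2 lower by 0.82 ± 0.11 and 0.75 ± 0.11. Sds, serine dehydratase, was higher by 3.44 ± 0.31 and 5.36 ± 0.34, from a WT mean of 0.20 CPM under AC and 0.09 under FAC, so both values rest on very few WT reads. Asrgl1, an asparaginase, was higher by 1.19 ± 0.14 and 1.76 ± 0.14. With FAC 5 of these 23 genes were higher and 3 lower in WT cells, and 4 were higher and 4 lower in KO cells. Gpt2 fell by 0.94 ± 0.11 in WT cells and by 0.87 ± 0.11 in KO cells.

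Of 11 tested carriers of glutamine, glutamate and ammonia, 3 were higher and 1 lower in KO against WT under AC, and 5 were higher and 1 lower under FAC. Slc38a3, the glutamine transporter of the hepatocyte membrane, fell with FAC in WT cells by 0.71 ± 0.11 and rose in KO cells by 0.51 ± 0.11, and these changes differed by 1.22 ± 0.15 (adjusted p = 0.00123). Slc38a4 fell by 0.70 ± 0.05 in WT cells and by 0.20 ± 0.05 in KO cells, with a difference of 0.50 ± 0.08 (adjusted p = 0.00658). In all, 2 were higher and 2 lower with FAC in WT cells, and 5 were higher and 1 lower in KO cells. Slc1a2, a glutamate transporter, was higher in KO by 1.78 ± 0.18 under AC and 1.73 ± 0.18 under FAC, and Rhbg, an ammonia channel, by 0.93 ± 0.19 and 1.84 ± 0.20.

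Of 18 genes listed for the regulation of the cycle, 17 regulators or cofactors and 1 readout (Tat), 1 was higher and 3 were lower in KO under AC, and 1 was higher and 4 were lower under FAC. These 4 and 5 called genes stand beside 42.9% and 49.5% of all tested genes. The one that was higher was Tat, a tyrosine-degrading enzyme that responds to glucocorticoids, by 2.42 ± 0.15 and 2.92 ± 0.15. Klf15, a factor known to induce amino acid breakdown, was lower by 1.37 ± 0.30 and 1.15 ± 0.28, and Nr3c1, the glucocorticoid receptor, by 0.44 ± 0.14 and 0.51 ± 0.14. Hnf4a did not pass in any comparison. With FAC, Cebpa fell in WT cells by 0.43 ± 0.12 and was the only one of the 18 called there, and in KO cells 1 gene (Tat) was higher and 3 were lower, among them Foxa1 by 0.39 ± 0.12.

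Among genes known from either end of the liver lobule, some were higher in KO cells and a few periportal ones lower, with 21.7% of all tested genes higher under AC and 24.6% under FAC. Of 13 periportal genes other than the set, 9 were higher and 3 lower under AC and 8 were higher and 3 lower under FAC. Hal, which removes ammonia from histidine, was higher by 4.84 ± 0.31 and 5.41 ± 0.29, and Pck1, of gluconeogenesis, by 5.41 ± 0.59 and 5.21 ± 0.47 again from very few WT reads (means of 0.07 CPM under AC and 0.19 under FAC). Cdh1, an adhesion molecule, was lower by 0.58 ± 0.14 and 0.60 ± 0.14, and Alb, albumin, by 0.17 ± 0.04 and 0.35 ± 0.04. Of 15 tested pericentral genes, 10 were higher under AC and 11 under FAC, 5 and 4 did not pass, and none was lower. Cyp2e1, the ethanol-oxidising cytochrome, was higher by 2.68 ± 0.09 and 3.12 ± 0.09, and Cyp1a2 by 1.64 ± 0.08 and 2.13 ± 0.08.

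Macrophages also make Arg1, so their markers are set beside it. Of 9 macrophage markers other than Cd68, 7 were in the table, with a summed level of 3.56 to 4.35 TPM in WT AC, 1.22 to 2.18 in WT FAC, 0.29 to 0.86 in KO AC and 0.12 to 0.39 in KO FAC. This sum was lower in KO than in WT libraries under each agent. With Cd68 included, the sum was 522 to 586 TPM in WT AC and 703 to 893 in KO AC. Whether macrophages contributed to the Arg1 reads was not tested. Clec4f of Kupffer cells and Chil3 were at 0 in all 6 KO libraries but also in 4 of the 6 WT libraries each. Cd68, a lysosomal protein with a mean of 387 CPM in WT AC, far above the other markers, was higher in KO by 0.71 ± 0.09 under AC and by 0.27 ± 0.09 under FAC. Stellate cell and fibroblast markers summed to 2.52 to 4.53 TPM in WT and 0.74 to 1.02 in KO libraries, endothelial markers to 3.60 to 7.12 over all groups, and cholangiocyte markers to 18.6 to 22.3 in WT, 23.9 to 29.3 in KO AC and 37.4 to 52.6 in KO FAC. The endothelial markers went apart, with log2 fold changes of -1.52 ± 0.21 under AC and -2.44 ± 0.21 under FAC for Pecam1, -2.15 ± 0.45 and -3.21 ± 0.43 for Kdr, and 1.34 ± 0.19 and 1.40 ± 0.19 for Stab2. The cholangiocyte sum was mostly Krt19 and Sox9, and neither passed in KO against WT under AC. Under FAC Krt19 was higher by 1.59 ± 0.22 and Sox9 by 0.97 ± 0.20, while Epcam did not pass in any comparison. The red cell markers, of which only Alas2 had enough reads to be tested, summed to 1.71 to 2.77 TPM in WT and 11.7 to 18.6 in KO libraries. That sum was nearly all Alas2, while Hba-a1 had group means of 0.07 to 0.19 TPM.

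The genes whose pattern over the 12 libraries was nearest to 4 of the members were found by the root mean square difference of their log2 CPM after the mean of each gene was removed, among genes with a mean of at least 5 FPKM. Nearest to Cps1 were Mat1a (0.21), which makes S-adenosylmethionine, and Slc10a1 (0.25), the bile acid importer. Nearest to Arg1 were Hpd (0.27), of tyrosine breakdown, and Mup10 (0.35), a member of a family of near-identical genes among which reads can be split. Nearest to Ass1 were P4hb (0.11) and F10 (0.13), and nearest to Glul were Csad (0.15) and Apoa5 (0.17). Mat1a was picked for its nearness to Cps1 over these same libraries, so a like fall and rise follows from that choice. Its log2 change with FAC was -0.64 in WT and 0.56 in KO cells.

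On GRCm38.p6, the 5 enzymes of the cycle lie on 5 chromosomes, Cps1 on chromosome 1 (67122426 to 67231267), Otc on X (10252230 to 10321024), Ass1 on 2 (31470270 to 31520670), Asl on 5 (130011258 to 130024381) and Arg1 on 10 (24915207 to 24927470). Gls2 is on chromosome 10 as well (128194635 to 128210004), Glul is on chromosome 1 (153899929 to 153909723), Nags on 11 (102145513 to 102149528), Slc25a15 on 8 (22375550 to 22398621) and Glud1 on 14 (34310727 to 34345033). Chromosome 10 also carries Nr1h4, the gene that was targeted.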

How the data were processed

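Per the labels' protocols, total RNA of 12 hepatocyte libraries, 3 in each of 4 groups, was sequenced on the BGISEQ-500 platform. The authors quantified reads with RSEM, and mm10 and GRCm38.p6 are named as builds, per the submitters' processing notes, while versions, aligner and strand setting were not given in the sources used here. Each row of the deposited table has estimated counts (expected counts), FPKM and TPM per gene, made by the authors from whole libraries. The 8 columns of group means of FPKM and TPM were not used, and the authors' group means of counts served only as a check of the library columns. Estimated counts were rounded, scaled by TMM and tested with edgeR 4.0.16 (R 4.3.3) in 1 model over the 4 groups, with 5 contrasts, after filterByExpr with a minimum count of 10 had removed 4453 genes, and p-values were adjusted by Benjamini-Hochberg over 12275 genes. The biological coefficient of variation was 10.8%. Alternatives were DESeq2 1.42.0, limma 3.58.1 on log2(FPKM + 1), log2(FPKM + 0.1) and log2(TPM + 1), other filters and scalings, 2-group fits, a replicate block and omission of libraries. With 3 libraries against 3 an exact permutation test cannot go below 0.1, so none was run. The code was tested on simulated data. All 10 members were to be described in every comparison, and up to 3 called genes with the largest change of each further list in a comparison, which are also given in other comparisons. Arg2 and Hnf4a were named outside this rule, after their values were seen. Members and lists were chosen with earlier results of these data known. Some genes of the further lists are counted but not reported by name here.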

Additional observations from a re-analysis of the deposited data

Results flagged for a closer look

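Cps1 differed between the genotypes in its change with FAC, by 1.18 on the log2 scale (KO minus WT, edgeR adjusted p = 0.0106), with every WT FAC library below the WT AC libraries and every KO FAC library above the KO AC libraries. The within-WT part of this contrast rests on 57 to 96 estimated reads per library.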

How the results depend on the processing

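Of 50 gene-by-comparison results, 28 were called, and none of these 28 changed direction in any alternative run. Of these, 21 kept their call in every alternative that tested them and 7 lost it in at least 1; the cause was not tested. With FAC in WT cells the count of called members was 3, and it was 1 in limma on log2(FPKM + 1) and on log2(TPM + 1), and 1 to 2 with single libraries left out. With FAC in KO cells it was 7, and it was 4 when only the 2 groups were fitted, and 4 to 7 with single libraries left out (4 without KO AC library 2). For the difference between genotypes it was 1, and it was 2 in DESeq2, in all 3 limma fits and in both fits without 2 KO libraries (KO AC 1 with KO FAC 4 or 6, chosen after the data were seen), and 1 to 2 with single libraries left out, the added gene being Glul. With genes kept only at 5 FPKM or more in 3 libraries, Cps1 was not tested. Over all genes, the 2-group fits of FAC against AC called 3345 in WT and 2199 in KO cells, where the main fit called 2117 and 3633.

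Correlations of the deviations of same-numbered WT and KO libraries ran from -0.14 to 0.21, and those of differently numbered ones from -0.26 to 0.22. These values did not show a pairing by title number, but so few libraries cannot exclude one. With a replicate block the member counts stayed at 1 for the difference, 9 for KO against WT with AC and 8 with FAC, while the difference was called for 84 genes of the table instead of 387.

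Signs turned only for results that did not pass. In limma on log2(FPKM + 1) and log2(TPM + 1) the Arg1 difference was 0.0997 and 0.0091. On log2(TPM + 1) the change with FAC was -0.0624 for Asl and -0.0334 for Ass1 in WT cells and -0.0053 for Glul in KO cells, and Slc25a15 in KO against WT under FAC was -0.0081. Without KO AC 1 and KO FAC 6, Glud1 in KO against WT under FAC was -0.0822. The Nags difference was -0.15 without KO AC 1 and KO FAC 4, -0.0058 on log2(FPKM + 0.1), -0.0073 on log2(FPKM + 1) and -0.0318 on log2(TPM + 1). Nags with FAC in KO cells was -0.176 and -0.0214 in the fits without 2 libraries, -0.0814 and -0.0772 on log2(FPKM + 0.1) and log2(FPKM + 1), -0.178 on log2(TPM + 1) and -4.7e-05 with no filter. With single libraries left out, the Arg1 difference ran from -0.242 to 0.147, the Nags difference from -0.0688 to 0.112, Nags with FAC in KO cells from -0.0927 to 0.0683, Nags with FAC in WT cells from -0.105 to 0.0287, Glud1 with FAC in WT cells from -0.299 to 0.113, and Glud1 in KO against WT under FAC from -0.0843 to 0.513. On log2(TPM + 1) the median of all genes shifted by -0.10 to -0.17 in the 4 pairwise comparisons, and the share of called genes that were higher fell from 50.5% to 22.9% for FAC in WT, from 50.6% to 18.5% for FAC in KO, from 50.7% to 32.2% for KO against WT with AC from 49.7% to 28.2% with FAC, and from 59.4% to 43.9% for the difference. Counts of 31 to 96 reads limit Arg1, Cps1 and Otc in WT cells.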
